A study of Mus musculus with 11 samples.

Results

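The 10 genes described here encode factors that build tunneling nanotubes, thin actin-filled bridges through which cells pass organelles and protein aggregates to each other. They were chosen by name, with earlier results of these data known. They are Tnfaip2, which encodes M-Sec, Lst1, and the Ral GTPase genes Rala and Ralb. The others are the exocyst subunit genes Exoc2 and Exoc4, and the filopodial genes Myo10, Fscn1, Eps8 and Baiap2. All 10 were among the 16934 genes of the count table, and all 10 were among the 11276 genes that passed the filter on low counts and were tested. The 11 libraries were made by 3′ mRNA sequencing of primary microglia, brain-resident phagocytes, from C57BL/6 pups of postnatal day 0 to 3 that had been in culture for 7 to 10 days. In 4 libraries the microglia had spent 6 h with primary cortical neurons that had first taken up Atto488-labelled fibrils of α-synuclein, which accumulates in Parkinson's disease, from a 0.1 µM dose over 16 h and had then been washed. In 3 libraries they had spent 6 h with untreated neurons, which like the loaded ones were taken after 14 days in vitro, and in 4 libraries the microglia were kept alone, without fibrils. The labels state neither how microglia were separated from neurons nor whether replicates are independent cultures, so the p-values rest on a spread between libraries that may be technical.

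M-Sec is a cytosolic protein related to the exocyst subunit Sec6, and it starts nanotube formation by working with the GTPase RalA and the exocyst, an 8-subunit complex that tethers vesicles to the plasma membrane. LST1, a small membrane protein of leukocytes, was found in human cells to recruit RalA, M-Sec and the exocyst to the membrane. Filopodia, the finger-like protrusions related to nanotubes, need proteins that bend the membrane, carry cargo to the tip and bundle actin. M-Sec is expressed by myeloid cells and was first found as a gene induced by tumour necrosis factor.

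Tnfaip2, Fscn1 and Baiap2 had an unadjusted p under 0.05 against microglia alone in at least 1 comparison, and their RefSeq promoter windows, 250 bases before to 50 bases after a start site on the GRCm38.p6 build, are printed here. They lie at chr12:111442411-111442710 for Tnfaip2, chr5:142960105-142960404 for Fscn1 and chr11:119942842-119943141 for Baiap2, all on the plus strand. A window's start site need not be the first base of the gene. The Tnfaip2 gene begins at 111442450, inside its window and before that start site, and the Baiap2 gene at 119939916, before its window. Capitals mark matches to any of 5 motifs searched on both strands.
Tnfaip2: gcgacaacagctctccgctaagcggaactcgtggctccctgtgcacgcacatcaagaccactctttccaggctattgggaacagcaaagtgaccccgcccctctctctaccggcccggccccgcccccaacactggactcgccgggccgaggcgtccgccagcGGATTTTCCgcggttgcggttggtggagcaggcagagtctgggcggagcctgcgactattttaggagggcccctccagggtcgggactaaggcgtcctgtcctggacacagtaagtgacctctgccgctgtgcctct
Fscn1: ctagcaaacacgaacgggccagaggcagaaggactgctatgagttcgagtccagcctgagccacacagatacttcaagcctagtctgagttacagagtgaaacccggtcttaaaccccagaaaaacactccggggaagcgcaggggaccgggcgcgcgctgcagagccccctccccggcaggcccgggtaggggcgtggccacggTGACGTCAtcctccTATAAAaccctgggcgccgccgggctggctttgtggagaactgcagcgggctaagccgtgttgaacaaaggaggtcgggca
Baiap2: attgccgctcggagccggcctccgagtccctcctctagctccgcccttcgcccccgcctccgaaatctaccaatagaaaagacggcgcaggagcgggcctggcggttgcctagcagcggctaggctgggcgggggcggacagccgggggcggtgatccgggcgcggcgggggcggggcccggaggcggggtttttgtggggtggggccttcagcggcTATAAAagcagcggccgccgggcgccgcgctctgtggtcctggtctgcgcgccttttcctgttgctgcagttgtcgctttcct
The Fscn1 window holds a cyclic AMP response element, TGACGTCA, whose first base is 45 bases before the start site, and a TATAAA motif whose first base is 31 bases before it. The Baiap2 window holds a TATAAA motif whose first base is 33 bases before the start. Of 32851 RefSeq promoter windows, 1.79% hold TGACGTCA and 13.6% hold TATAAA. The last motifs searched were chosen after the windows had been read, so a share beside a match is a description only. The Tnfaip2 window holds an NF-kB motif, GGNNTTTCC, which 5.82% of windows hold. Its first base there is 87 bases before the window's start site and after the first base of the gene. With a further G required before that motif, as it was first searched, no factor's window matched and 1.63% of all windows did. An AP-1 motif (TGANTCA, in 7.81% of windows) and a PU.1 motif (GAGGAAGT, 3.2%) were in no factor's window. No matches of the 5 motifs overlapped, and a match or its lack says only which letters stand in the window. The window table gave 1 or 2 windows for each of 8 of the 10 genes. Among the other 5 of these 8 genes, 1 of the 2 Myo10 windows held TATAAA, and Lst1 and Eps8 had no entry.

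Total counts were 8253070 to 14844071 with fibril-loaded neurons, 10925771 to 16802451 with untreated neurons, and 10700940 to 14541179 in microglia alone, with between 9157 and 11739 genes detected per library. Rn45s, the ribosomal RNA precursor, took at most 17.0% of counts with fibril-loaded neurons, 15.7% with untreated neurons and 24.8% in microglia alone. The 10 microglia markers, Csf1r and C1qa among them, summed to 12317 to 18567 CPM (counts scaled to a common library size) with fibril-loaded neurons, 14468 to 18042 CPM with untreated neurons and 10754 to 12179 CPM in microglia alone. Single microglia markers differed in this. Cx3cr1 averaged 1858 CPM with fibril-loaded neurons, 1880 CPM with untreated neurons and 602 CPM in microglia alone. In the same order, Csf1r averaged 1386, 1632 and 1429 CPM, and Trem2 759, 651 and 748 CPM. The 12 neuron markers summed to 8.54 to 46.2 CPM with fibril-loaded neurons, 1.07 to 30.1 CPM with untreated neurons and 80.2 to 157 CPM in microglia alone, and Snap25 was at 0 in every library. The neuronal genes did not move as one. Dcx averaged 2.59 ± 3.10 CPM (n = 4) with fibril-loaded neurons, 0.0403 ± 0.0698 CPM (n = 3) beside untreated neurons and 48.6 ± 22.4 CPM (n = 4) in microglia alone. Rbfox3 averaged 4.43 CPM with fibril-loaded neurons, 5.499 CPM with untreated neurons, and 5.83 CPM in microglia alone, while Nefl averaged 0.117 CPM with fibril-loaded neurons, 6.59 CPM with untreated neurons, and 0.155 CPM in microglia alone. Nefl was at 0 in 2 of the 3 libraries with untreated neurons. Nefm and Slc17a7 had counts only with fibril-loaded neurons, each at 0 in 3 of those 4 libraries. The 8 astrocyte markers summed to 17.0 to 102 CPM with fibril-loaded neurons, 24.5 to 88.9 CPM with untreated neurons and 17.9 to 39.8 CPM in microglia alone, where Gfap was at 0. The 8 oligodendrocyte lineage markers summed to 124 to 245 CPM with fibril-loaded neurons, 218 to 255 CPM with untreated neurons and 117 to 190.3 CPM in microglia alone. Fibroblast and endothelial markers summed to at most 14.6 CPM in any library, and neutrophil and monocyte markers to at most 13.3 CPM. The part of these shifts in the results below was not tested. In bulk libraries, fewer cells of a type and less RNA per cell cannot be told apart.

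No nanotube factor passed edgeR's quasi-likelihood test with Benjamini-Hochberg (BH) adjustment over the 11276 genes at a threshold of 0.05, in any of the 3 comparisons. With fibril-loaded neurons against microglia alone 0 of 10 were called, where 0.319% of tested genes were. With untreated neurons against microglia alone 0 of 10 were called, against 0.639% of tested genes, and between fibril-loaded and untreated neurons 0 of 10, against 0% of tested genes. DESeq2 and limma on the deposited normalized values also called 0 of 10 in each comparison. Of the 11276 tested genes, DESeq2 called 224, 453 and 158 and limma 40, 81 and 0, in the same order of comparisons. Without the filter on low counts edgeR called 3 of 10 with untreated neurons against microglia alone, all higher, where 1.1% of 14106 genes were called higher: Tnfaip2 (BH-adjusted p = 0.00223), Fscn1 (0.0191) and Baiap2 (0.045). At an unadjusted edgeR p under 0.05 there were 2 of 10 with fibril-loaded neurons against microglia alone (8.14% of tested genes), 3 of 10 with untreated neurons against microglia alone (10.3%) and 0 of 10 between the co-cultures (3.95%).

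**Figure D1:**
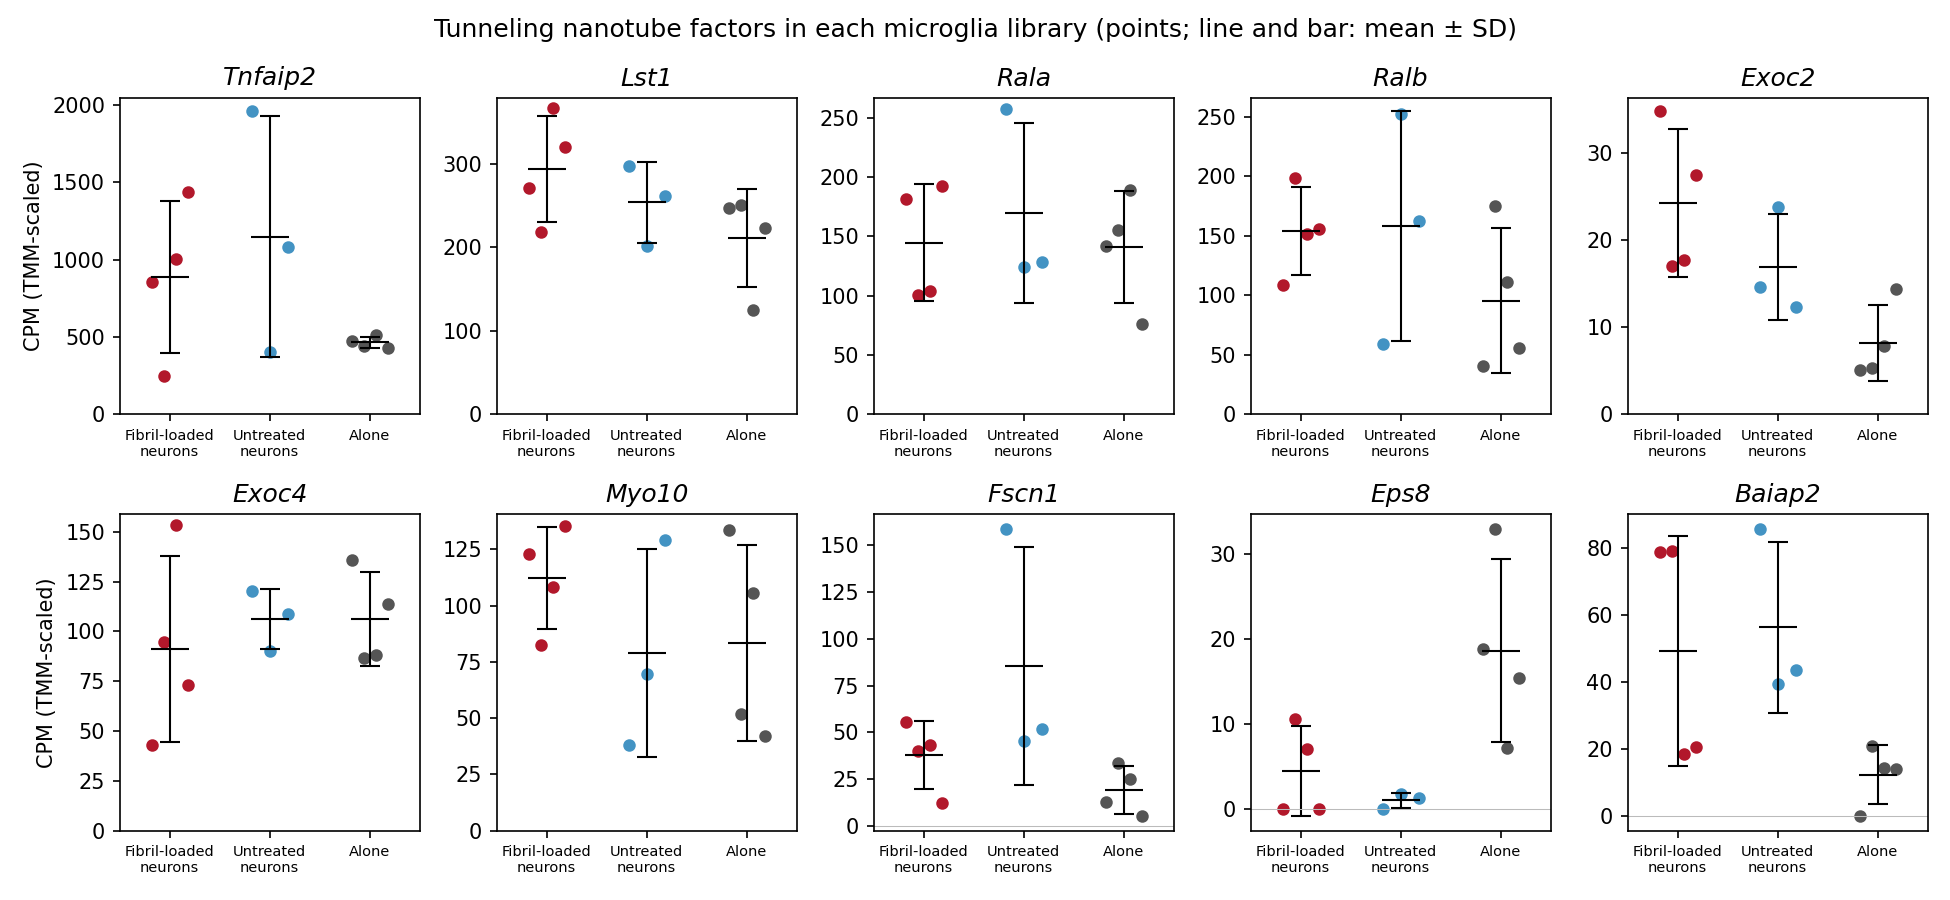
CPM of each nanotube factor (vertical axes, linear, each gene on its own scale) in microglia with fibril-loaded neurons (4 libraries), with untreated neurons (3) and alone (4); points are libraries, and the line and bar are the mean and SD. Tnfaip2 lies between 425 and 511 CPM in the 4 libraries of microglia alone and spreads from 248 to 1959 CPM in the co-cultures. The mean of Eps8 is highest in microglia alone, but library 3 there (7.17 CPM) lies below library 2 with fibril-loaded neurons (10.6 CPM).

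Tnfaip2, the M-Sec gene on chromosome 12 from 111442450 to 111455018, was tightly set in microglia kept alone and widely spread beside neurons. It was at 853, 248, 1005 and 1435 CPM with fibril-loaded neurons and at 1959, 404 and 1084 CPM with untreated neurons. In microglia alone it was at 475, 444, 511 and 425 CPM. The antisense gene Gm40578 spans the 3′ end of Tnfaip2, and its exons share 314 bases with Tnfaip2 exons, but no 50-base word of the last 400 bases of Tnfaip2's protein-coding transcripts. In each co-culture all libraries but 1 lay above every library of microglia alone, and library 2 of each lay below every one of them, so the groups overlapped. The mean was 885 ± 491 CPM (SD, n = 4) with fibril-loaded neurons and 464 ± 37.7 CPM (SD, n = 4) in microglia alone, a log2 fold change of 0.93 (SE 0.42, 95% interval 0.06 to 1.80, edgeR BH-adjusted p = 0.581). With untreated neurons the mean was 1149 ± 780 CPM (SD, n = 3), a log2 fold change of 1.31 over microglia alone (SE 0.45, interval 0.38 to 2.24, edgeR BH-adjusted p = 0.256). Fibril-loaded over untreated neurons gave -0.38 (interval -1.30 to 0.55, edgeR BH-adjusted p = 1). Without library 2 of the fibril-loaded group its log2 fold change over microglia alone was 1.24, and without library 4 it was 0.60. Without library 1 of the untreated group that with untreated neurons was 0.69, and fibril-loaded over untreated neurons gave 0.27. In order of the mean, untreated neurons came before fibril-loaded neurons and microglia alone last, and no neighbours in that order differed beyond their spread.

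The spread of Tnfaip2, as the SD over the mean, was 55.5% with fibril-loaded neurons, 67.9% with untreated neurons and 8.13% in microglia alone. Among 3118 tested genes averaging 50 CPM or more, 8.21% had a spread as wide with fibril-loaded neurons and 4.33% with untreated neurons, and 1.48% had one as narrow in microglia alone. The median spread of these genes was 28.6% with fibril-loaded neurons, 27.0% with untreated neurons and 33.1% in microglia alone. A wide spread was not particular to Tnfaip2. With untreated neurons 7.15% of these genes were as widely spread as Ralb and 8.34% as Myo10. There the shares were 19.1% for Rala, 70.4% for Lst1 and 82.1% for Exoc4. The co-culture libraries with the least Tnfaip2, library 2 of each, had the highest microglia marker sums of all libraries, 18567 and 18042 CPM, and total counts of 8253070 and 10925771. Library 3 with fibril-loaded neurons, at 10112318 counts, had 1005 CPM of Tnfaip2. By the serial numbers in the sample titles, library 2 of each co-culture and library 3 of microglia alone fall in 1 set, which the labels do not explain. That library of microglia alone had 511 CPM of Tnfaip2. Whether depth, this set or the make-up of the cultures had a part in the spread was not tested.

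Lst1, the gene of the membrane recruiter on chromosome 17 from 35185095 to 35188440, varied less. It was at 271, 218, 366 and 319 CPM with fibril-loaded neurons, at 298, 202 and 261 CPM with untreated neurons and at 246, 251, 125 and 223 CPM in microglia alone. The groups overlapped, and the lowest library was 1 of microglia alone. The log2 fold change was 0.48 with fibril-loaded neurons (interval -0.11 to 1.07) and 0.26 with untreated neurons (interval -0.37 to 0.90) over microglia alone, and 0.21 (interval -0.43 to 0.85) between the co-cultures. The edgeR BH-adjusted p was 0.818 and 0.944 over microglia alone and 1 between the co-cultures.

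The Ral GTPases are the switches through which M-Sec and the exocyst are coupled, and RalA and RalB differ in where they act in the cell. Rala, on chromosome 13 from 17880575 to 17944217, was at 182, 101, 104 and 192 CPM with fibril-loaded neurons, 257, 124 and 129 CPM with untreated neurons and 142, 156, 189 and 76.1 CPM in microglia alone. The groups overlapped throughout, and the log2 fold change over microglia alone was 0.04 with fibril-loaded (interval -0.68 to 0.76) and 0.27 with untreated neurons (interval -0.50 to 1.05). Ralb, on chromosome 1 from 119470305 to 119504782, was at 109, 199, 152 and 156 CPM with fibril-loaded neurons, 59.5, 253 and 163 CPM with untreated neurons and 40.96, 175, 111 and 55.3 CPM in microglia alone. The Ralb groups overlapped too. Its mean was 154 ± 36.8 CPM (SD, n = 4) with fibril-loaded neurons, 158 ± 96.6 CPM (SD, n = 3) beside untreated neurons, and 95.6 ± 61.1 CPM (SD, n = 4) in microglia alone. The log2 fold change over microglia alone was 0.69 with fibril-loaded (interval -0.21 to 1.59) and 0.73 with untreated neurons (interval -0.24 to 1.69). The edgeR BH-adjusted p of Rala and Ralb was 1 and 0.862 with fibril-loaded neurons and 0.975 and 0.665 with untreated neurons.

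Of the exocyst subunits, Exoc2 encodes Sec5, which binds active Ral proteins directly, and Exoc4 encodes Sec8, a core subunit. Exoc2, on chromosome 13 from 30789516 to 30974096, was at 34.7, 17.0, 17.6 and 27.5 CPM with fibril-loaded neurons, 14.6, 23.7 and 12.3 CPM with untreated neurons and 5.09, 5.36, 7.88 and 14.4 CPM in microglia alone. All 4 libraries with fibril-loaded neurons lay above all 4 of microglia alone. Exoc2 was the only member with CPM ranges apart in that comparison (1 of 10). Of tested genes 5.62% had ranges apart there, and 2.7% had them apart and higher. The log2 fold change was 1.57 with fibril-loaded neurons (SE 0.86, interval -0.23 to 3.36, edgeR BH-adjusted p = 0.739) and 1.05 with untreated neurons (interval -0.83 to 2.93, edgeR BH-adjusted p = 0.847). Raw counts of Exoc2 ran from 54 to 500 per library. Exoc4, on chromosome 6 from 33249090 to 33973979, was at 42.8, 94.8, 153 and 73.1 CPM with fibril-loaded neurons, 120.1, 90.2 and 109 CPM with untreated neurons and 136, 86.6, 88.2 and 114 CPM in microglia alone. These groups overlapped, with log2 fold changes over microglia alone of -0.22 (interval -0.96 to 0.52) with fibril-loaded and 0.00217 (interval -0.80 to 0.80) with untreated neurons.

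Myo10 encodes myosin X, the motor that carries cargo to filopodial tips. On chromosome 15 from 25622550 to 25813673, it was at 123, 82.7, 108 and 136 CPM with fibril-loaded neurons, 37.9, 69.7 and 129 CPM with untreated neurons and 134, 52.0, 106 and 42.1 CPM in microglia alone. The 3 groups overlapped, and the log2 fold change was 0.43 (interval -0.42 to 1.28) with fibril-loaded and -0.08 (interval -0.998 to 0.84) with untreated neurons over microglia alone. Between the co-cultures it was 0.51 (interval -0.42 to 1.44, edgeR BH-adjusted p = 1).

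Fscn1 encodes fascin, which bundles actin filaments in filopodia. On chromosome 5 from 142960355 to 142973189, it was at 55.5, 39.8, 43.2 and 12.3 CPM with fibril-loaded neurons, 159, 45.4 and 52.0 CPM with untreated neurons and 12.9, 33.6, 25.2 and 5.27 CPM in microglia alone. All 3 libraries with untreated neurons lay above all 4 of microglia alone, and the fibril-loaded group overlapped with both. The log2 fold change over microglia alone was 2.15 with untreated neurons (SE 0.64, interval 0.81 to 3.49, unadjusted p = 0.00312 and BH-adjusted p = 0.168 in edgeR), and 0.97 with fibril-loaded neurons (interval -0.27 to 2.21, edgeR BH-adjusted p = 0.846). Between the co-cultures it was -1.18 (interval -2.50 to 0.14, edgeR BH-adjusted p = 1). Without library 1 of the untreated group the change with untreated neurons over microglia alone was 1.34, and that between the co-cultures -0.35.

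Baiap2 encodes IRSp53, a membrane-bending protein that links Cdc42 to actin. On chromosome 11 from 119939916 to 120006782, it was at 78.8, 79.2, 18.7 and 20.6 CPM with fibril-loaded neurons and 85.9, 39.6 and 43.6 CPM with untreated neurons. In microglia alone it was at 0.0783, 21.1, 14.3 and 14.2 CPM, the first from a single count. The untreated group lay above microglia alone without overlap, while the fibril-loaded group held a high pair of libraries and a pair close to the top of microglia alone. The log2 fold change over microglia alone was 1.99 with fibril-loaded neurons (SE 0.84, interval 0.25 to 3.73, unadjusted p = 0.027 and BH-adjusted p = 0.561 in edgeR) and 2.18 with untreated neurons (SE 0.88, interval 0.35 to 4.01, unadjusted p = 0.0216 and BH-adjusted p = 0.397 in edgeR). Without library 1 of microglia alone they were 1.58 with fibril-loaded and 1.77 with untreated neurons.

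Eps8 encodes a protein that caps and bundles actin and binds IRSp53. On chromosome 6 from 137477245 to 137649397, it was at 0, 10.6, 7.04 and 0 CPM with fibril-loaded neurons, 0, 1.70 and 1.24 CPM with untreated neurons and 18.9, 33.0, 7.17 and 15.4 CPM in microglia alone. It was the only factor lower in every library of a co-culture, that with untreated neurons, than in every library of microglia alone. With untreated neurons its log2 fold change was -4.23 (SE 2.26, interval -8.93 to 0.46, edgeR BH-adjusted p = 0.535) and with fibril-loaded neurons -2.08 (interval -5.85 to 1.70, edgeR BH-adjusted p = 1). On leaving out 1 library, the change with fibril-loaded neurons ran from -2.99 (without library 2 of that group) to -1.63. That with untreated neurons ran from -4.88 (without library 2 of that group) to -3.65. In limma on the deposited normalized values the change with fibril-loaded neurons was -4.24. Without library 2 of the fibril-loaded group the difference between the co-cultures was 1.25, against 2.16 with it (interval -2.07 to 6.39), and without library 2 of the untreated group it was 2.80. A count of 0 in a library allows up to 3 counts, a mean floor of 0.260 CPM with fibril-loaded and 0.209 CPM with untreated neurons, and covers counting error only. The neuron marker sum, 8.54 to 46.2 CPM with fibril-loaded neurons, 1.07 to 30.1 CPM with untreated neurons, and 80.2 to 157 CPM in microglia alone, was lower in both co-cultures, as was mean Eps8, while mean Fscn1 and Baiap2, which neurons also express, were higher there. Its part in these differences was not tested.

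Fscn1, Baiap2 and Eps8 were the 3 of 10 members with CPM ranges apart between untreated neurons and microglia alone, 2 higher and 1 lower, where 10.3% of tested genes had ranges apart, 4.9% higher and 5.45% lower. Between the co-cultures the ranges were apart for 0 of 10, where 4.68% of tested genes had ranges apart. The median log2 fold change over the 10 was 0.58 with fibril-loaded neurons, where the median of all tested genes was -0.04, and 8 of 10 were positive against 47.9% of all. With untreated neurons it was 0.50 against -0.05, with 8 of 10 positive against 47.7% of all. The comparisons share the libraries of microglia alone. The factors were chosen with earlier results of these data known, so these medians and counts are a description. Between the co-cultures the median was -0.12 against 0 for all tested genes, with 4 of 10 positive. The unadjusted 95% interval of a factor had a median half-width on the log2 scale of 0.89 with fibril-loaded neurons, 0.95 with untreated neurons and 0.95 between the co-cultures, so a p that missed the threshold does not show equal levels. Over all tested genes this half-width was 1.82, 1.96 and 1.95 in the same order, so the factors are set beside less precisely measured genes.

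**Figure D2:**
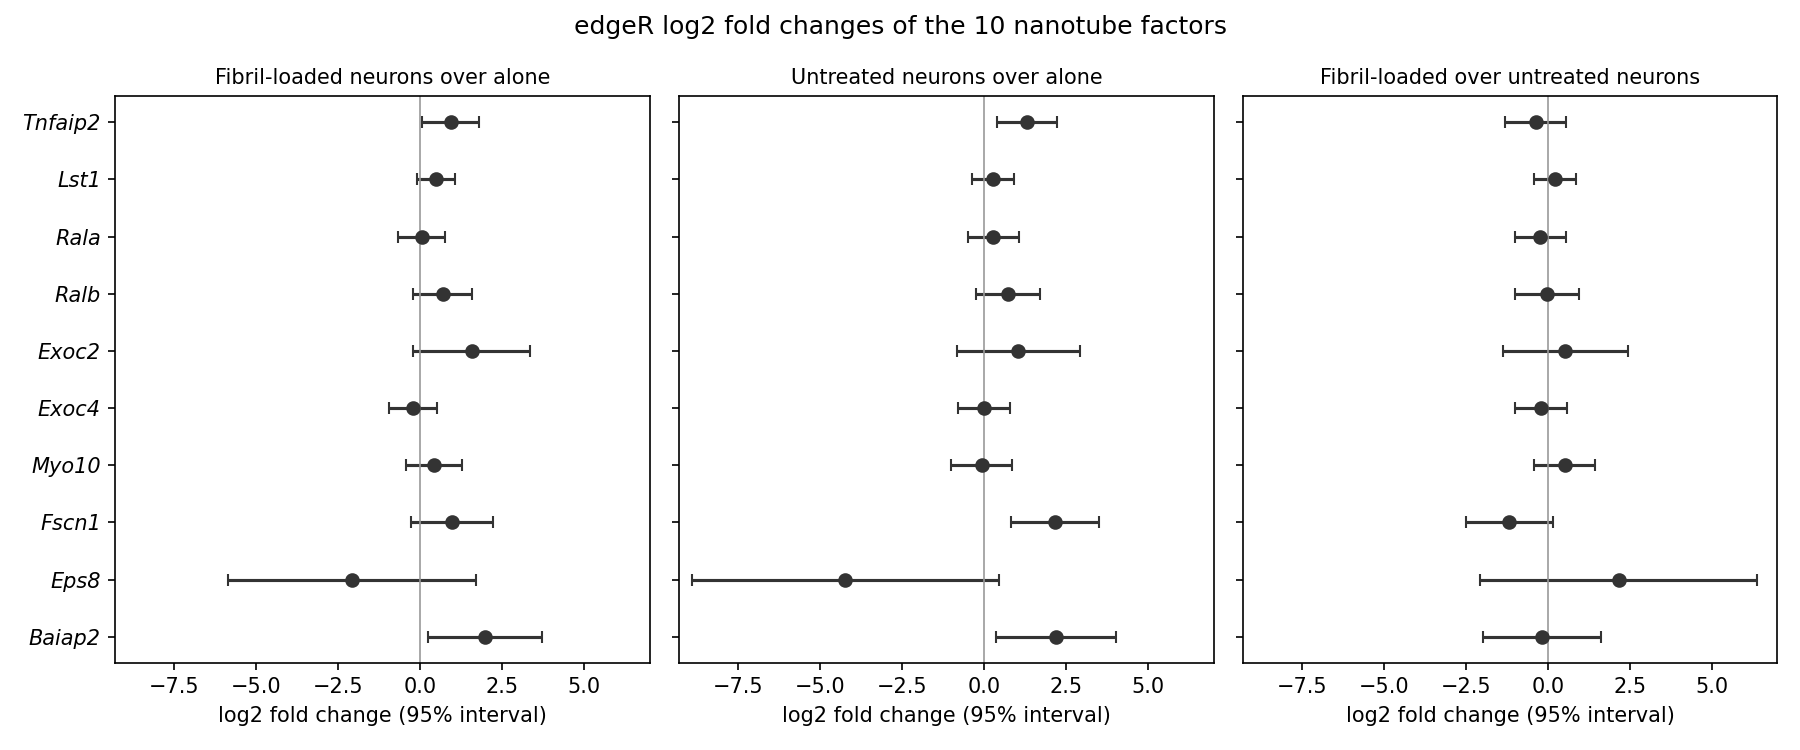
edgeR log2 fold changes of the 10 nanotube factors (points) with unadjusted 95% intervals (bars) for fibril-loaded neurons over microglia alone, untreated neurons over microglia alone, and fibril-loaded over untreated neurons. Intervals lie above 0 for Tnfaip2 and Baiap2 over microglia alone in both co-cultures and for Fscn1 with untreated neurons, none passed BH adjustment, and all intervals between the co-cultures span 0.

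Across the 11 libraries the 45 pairs of factors had Pearson correlations of log2(CPM + 1) from -0.74 to 0.65 with a median of 0.06, given as a description. The most alike were Fscn1 and Baiap2 (r = 0.65, Spearman's rho 0.80), and the most opposed Exoc2 and Eps8 (r = -0.74, rho -0.72). Tnfaip2 was most like Rala (r = 0.60, rho 0.68) and Lst1 (r = 0.59, rho 0.76) among the factors and least like Eps8 (r = -0.73, rho -0.69). These points share library depth and group. With deviations from the group means in place of levels, r was 0.39 for Fscn1 and Baiap2 and -0.52 for Exoc2 and Eps8. For Tnfaip2 it was 0.60 with Rala, 0.53 with Lst1 and -0.64 with Eps8.

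Outside the list, the 5 genes most like Tnfaip2 among 3112 candidates averaging 50 CPM or more were Mcl1, a survival gene of the BCL-2 family (Pearson r = 0.90, rho 0.85 over 11 libraries), Fbrsl1 (r = 0.89, rho 0.80), the RNA helicase gene Ddx6 (r = 0.86, rho 0.77), Tnf (r = 0.86, rho 0.81) and Pou2f2, the gene of the transcription factor Oct-2 (r = 0.85, rho 0.86). They were chosen for this likeness, so the correlations are a description. With deviations from the group means in place of levels, r was 0.89 for Mcl1, 0.84 for Tnf and 0.90 for Pou2f2. Tnf, the gene of tumour necrosis factor, was at 214, 15.2, 157 and 244 CPM with fibril-loaded neurons, 128, 50.8 and 186 CPM with untreated neurons and 49.1, 28.4, 78.0 and 71.1 CPM in microglia alone. Its lowest library in each co-culture was library 2, as for Tnfaip2, and these 2 libraries share a set of serial numbers in the titles. Mcl1 ran from 316 to 526 CPM with fibril-loaded neurons, 434 to 626 CPM with untreated neurons, and 312 to 393 CPM in microglia alone, and was likewise lowest in library 2 of each co-culture. None of the 5 passed edgeR's BH adjustment in any comparison, the smallest adjusted p being that of Tnf with fibril-loaded neurons (0.45). The 3 genes most like Lst1 were Ahnak, a large scaffold protein gene (r = 0.86, rho 0.90), Mapk14, which encodes the kinase p38α (r = 0.82, rho 0.79), and Ubap1, an ESCRT-I subunit gene (r = 0.78, rho 0.60).

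**Figure D3:**
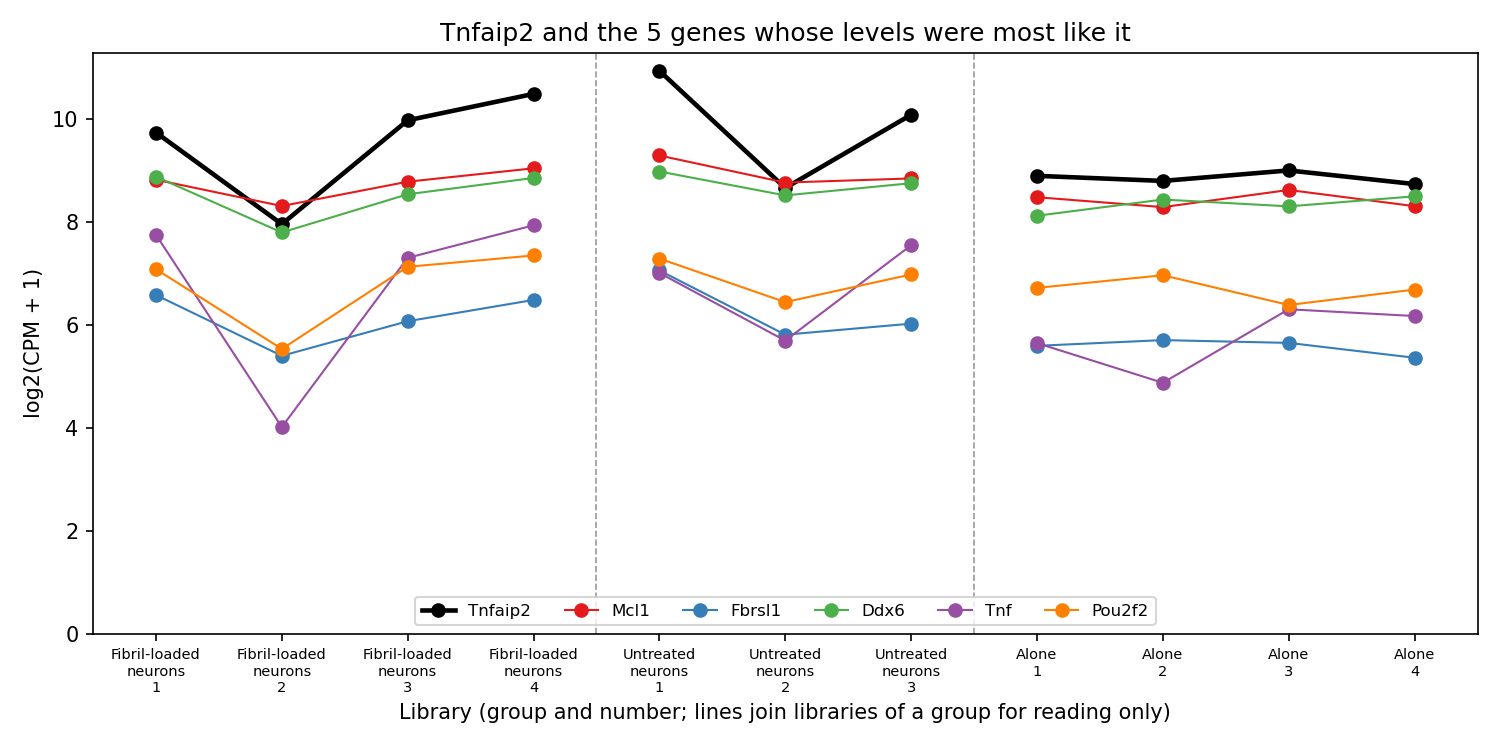
Level as log2(CPM + 1) (vertical axis) of Tnfaip2 and the 5 genes most like it in each library with fibril-loaded neurons, with untreated neurons and alone (horizontal axis); lines join libraries of a group for reading only. Tnfaip2 and Tnf are lowest in library 2 of each co-culture, where Tnf is at 15.2 and 50.8 CPM, and Tnfaip2 stays between 425 and 511 CPM in microglia alone.

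The wider nanotube machinery was read from 5 lists of 42 genes, of which 38 were in the table and 34 were tested. No gene of these lists passed edgeR's BH adjustment in any comparison. With fibril-loaded neurons 16 of 34 were positive over microglia alone with a median log2 fold change of -0.14, with untreated neurons 16 of 34 with -0.05, and between the co-cultures 20 of 34 with 0.08. Unadjusted p was under 0.05 for 2 of 34 with fibril-loaded neurons (8.14% of tested genes), 4 of 34 with untreated neurons (10.3%) and 0 of 34 between the co-cultures (3.95%). With untreated neurons against microglia alone the CPM ranges of 3 of 34 were apart, Vasp higher and Mtss1 and Arf6 lower, where 10.3% of tested genes had ranges apart, a share close to that of the lists.

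Among the filopodial partners, of which 9 of 15 were tested, Vasp, which encodes an actin polymerase of filopodial tips, averaged 203 ± 67.5 CPM (n = 4) with fibril-loaded neurons, 263 ± 62.6 CPM (n = 3) beside untreated neurons, and 114 ± 38.7 CPM (n = 4) in microglia alone. Its log2 fold change over microglia alone was 0.84 with fibril-loaded and 1.21 with untreated neurons (SE 0.35, edgeR BH-adjusted p = 0.149), and the untreated group, from 190.4 to 304 CPM, did not overlap with microglia alone, from 67.9 to 156 CPM. Mtss1, a membrane-bending relative of Baiap2, averaged 139 ± 32.5 CPM with fibril-loaded neurons, 93.1 ± 24.2 CPM with untreated neurons, and 199 ± 74.3 CPM in microglia alone, with a log2 fold change of -1.10 with untreated neurons (SE 0.35, edgeR BH-adjusted p = 0.213) and ranges apart. The list medians were -0.14 with fibril-loaded neurons and -0.50 with untreated neurons over microglia alone, and -0.17 between the co-cultures.

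Of the 5 reported partners of LST1 and M-Sec, Arf6, a GTPase of membrane recycling, averaged 286 ± 17.4 CPM with fibril-loaded neurons, 226 ± 26.4 CPM with untreated neurons and 367 ± 99.6 CPM in microglia alone. Its log2 fold change with untreated neurons was -0.70 (SE 0.28, edgeR BH-adjusted p = 0.392). Erp29, a chaperone reported to stabilise M-Sec, averaged 326 ± 63.9 CPM with fibril-loaded neurons, 352 ± 46.7 CPM with untreated neurons, and 488 ± 121 CPM in microglia alone, a log2 fold change of -0.58 with fibril-loaded neurons (SE 0.26, edgeR BH-adjusted p = 0.576). Flna, the gene of the actin crosslinker filamin A, averaged 561 ± 119.9 CPM with fibril-loaded neurons, 483 ± 111 CPM with untreated neurons, and 531 ± 141 CPM in microglia alone, and is given for its reported binding to LST1.

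Of the 7 other exocyst subunit genes, all tested, Exoc3, the gene of Sec6, averaged 49.4 ± 15.2 CPM with fibril-loaded neurons, 78.6 ± 42.8 CPM with untreated neurons and 69.8 ± 20.5 CPM in microglia alone. Exoc7, the gene of Exo70, averaged 35.9 ± 30.5 CPM with fibril-loaded neurons, 17.3 ± 10.6 CPM with untreated neurons, and 46.7 ± 34.3 CPM in microglia alone, a log2 fold change of -1.43 with untreated neurons over microglia alone (SE 0.79, edgeR BH-adjusted p = 0.549). Of the 12 Ral regulators and effectors, all tested, Rgl2, an activator of Ral, averaged 80.8 ± 21.3 CPM with fibril-loaded neurons, 62.1 ± 12.6 CPM with untreated neurons, and 51.9 ± 18.3 CPM in microglia alone. Ralgapb, which encodes a subunit of the complex that switches Ral off, averaged 40.3 ± 13.9 CPM with fibril-loaded neurons, 24.4 ± 2.32 CPM with untreated neurons, and 20.9 ± 10.4 CPM in microglia alone. With fibril-loaded neurons the log2 fold change over microglia alone was 0.64 for Rgl2 and 0.95 for Ralgapb (edgeR BH-adjusted p = 0.812 and 0.839). Of the 3 relatives of M-Sec in the Sec6 family, Exoc3l4 was tested, at means of 5.47 CPM with fibril-loaded neurons, 8.20 CPM with untreated neurons, and 6.69 CPM in microglia alone.

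**Figure D4:**
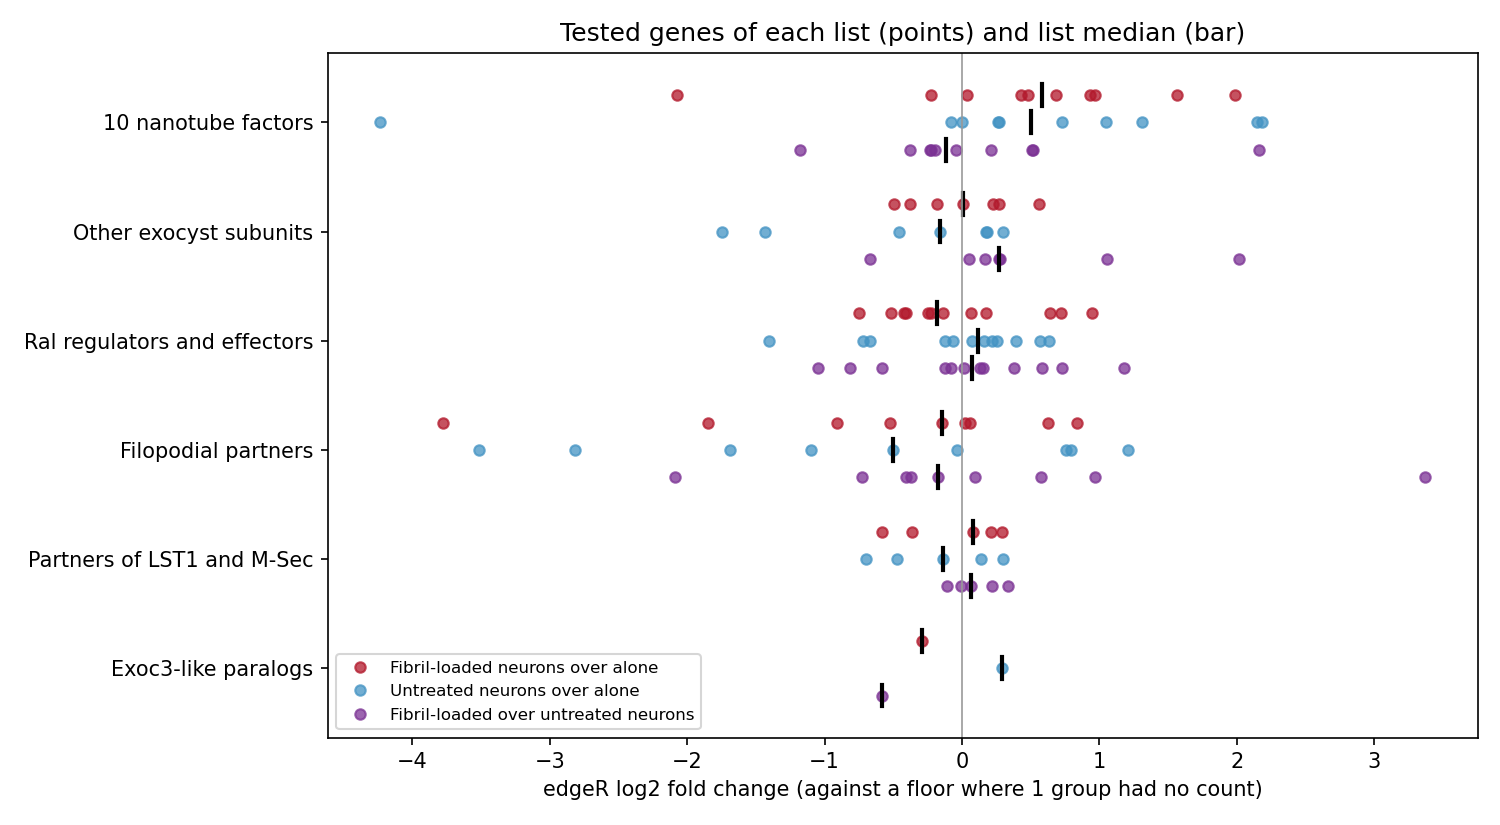
edgeR log2 fold change (horizontal axis) of each tested gene (points) in the 10 nanotube factors and 5 lists of related genes (rows), for fibril-loaded neurons over microglia alone (red), untreated neurons over microglia alone (blue) and fibril-loaded over untreated neurons (purple); bars are list medians, and Baiap2l1, with no count beside untreated neurons, is drawn at a floor of 3 counts per library. The medians of the 10 factors are 0.58, 0.50 and -0.12, and no gene drawn passed BH adjustment.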

How the data were processed

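The authors deposited raw counts per gene symbol for 11 libraries, and a normalized table, whose values are called scores here. At least 99.79% of deposited scores in each library lay within 0.51 of the count divided by 1 size factor. All 10 counts of 7 digits end in 0, as values kept to 6 significant digits would. Libraries were made with a QuantSeq 3′ forward kit, per the labels' protocols. STAR, Partek, DESeq2 and mm10 are named without versions, per the submitters' processing notes; strand setting and duplicate removal are not given in the sources used here. Libraries were numbered within a group in deposition order.

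The count tests used edgeR 4.0.16 under R 4.3.3 (filterByExpr, TMM scaling, quasi-likelihood test, group as the only term, all 11 libraries, two-sided, BH adjustment over 11276 genes, threshold 0.05). The common biological coefficient of variation was 1.15. Standard errors were derived as the absolute log2 fold change over the square root of edgeR's F statistic. Intervals use these with a t distribution. CPM use TMM-scaled sizes of the tested genes. Alternatives were RLE scaling, other filters, DESeq2 1.42.0, limma 3.58.1 on log2(score + 1), the groups compared only, sizes without Rn45s, libraries left out and, added after seeing the data, a block by the serial numbers in the sample titles. Code was tested on simulated data.

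Named genes were the members, the 2 genes with the smallest p per related list, any called (0), and the genes most like Tnfaip2 and Lst1; Flna and Baiap2l1 were chosen after their values were seen. Members and lists were chosen with earlier results of these data known, and the last motifs after the windows were read. The shorter NF-kB motif was taken after the longer one had matched no factor. Coordinates are RefSeq's for GRCm38.p6, whose chromosomes are those of mm10. No 50-base word from the last 400 bases of the members' protein-coding GENCODE M21 transcripts occurs in another gene's transcripts, on either strand.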

Additional observations from a re-analysis of the deposited data

How the results depend on the processing

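No member was called in any comparison under RLE scaling, a mean of at least 5 CPM, DESeq2, limma on the deposited normalized table, only the groups compared, library sizes without Rn45s, or without each group's library of fewest detected genes, nor in any fit that left out 1 library (0 to 0 members). Without the low-count filter 3 were called with untreated neurons against microglia alone and 0 in the other comparisons; the cause was not tested. Over all genes edgeR called 36 with fibril-loaded neurons against microglia alone, 72 with untreated neurons against microglia alone and 0 between the co-cultures. In the same order, without the low-count filter the counts were 164, 234 and 5, and with DESeq2 224, 453 and 158. With untreated neurons against microglia alone 47 were called at a mean of at least 5 CPM, 41 with only the 2 groups and 29 without each group's library of fewest detected genes, which called 1 between the co-cultures. Leaving out 1 library gave 23 to 42, 32 to 76 and 0 to 1.

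None of the factors whose sign turned was called. Exoc4 with untreated neurons against microglia alone was 0.00217 on the log2 scale, and was -0.00237 with RLE scaling, -0.00691 without the filter and -0.00237 with DESeq2. Ralb between the co-cultures was 0.16 in limma on the deposited table, against -0.04. Without each group's library of fewest detected genes, library 1 in all 3, Rala and Exoc4 were -0.062 and 0.16 with fibril-loaded neurons, Rala and Myo10 -0.13 and 0.61 with untreated neurons over microglia alone, and Tnfaip2, Rala and Exoc4 0.26, 0.067 and 0.10 between the co-cultures.

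On leaving out 1 library, Rala ran from -0.17 to 0.23 and Exoc4 from -0.60 to 0.013 with fibril-loaded neurons over microglia alone. With untreated neurons over microglia alone Rala ran from -0.15 to 0.46, Exoc4 from -0.092 to 0.14 and Myo10 from -0.63 to 0.26. Between the co-cultures Tnfaip2 ran from -0.78 to 0.27, Rala from -0.42 to 0.22, Ralb from -0.41 to 0.47, Exoc4 from -0.60 to 0.0099 and Baiap2 from -0.52 to 0.26. Depth limits Eps8 and Baiap2, with as few as 0 and 1 counts in a library.

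The labels carry no replicate number, but serial numbers in the sample titles step evenly within each group and fall into 4 sets, which the labels do not explain. Correlations of deviations from group means were taken between libraries of different groups. Over tested genes they were -0.02 to 0.07 within sets (10 pairs, median 0.04) and -0.05 to 0.05 between sets (30 pairs, median -0.02). Over tested genes averaging 50 CPM or more they were -0.11 to 0.30 within sets (median 0.10) and -0.22 to 0.20 between sets (median -0.05). Medians were higher within sets while the ranges overlapped. Whether the sets pair the samples is thus not settled, and the main test leaves them out. With the set as a replicate block, tried only after the data had been seen, edgeR called no member in any comparison. Over all genes it called 66 with fibril-loaded neurons and 95 with untreated neurons against microglia alone, and 0 between the co-cultures. With the block Myo10 was 0.095 with untreated neurons over microglia alone, and Ralb and Baiap2 were 0.19 and 0.50 between the co-cultures, signs opposite to those without it. Eps8 was -6.57 with fibril-loaded and -8.61 with untreated neurons, over microglia alone, and Tnfaip2 was 0.63 with fibril-loaded and 1.14 with untreated neurons. In each of the 3 sets with both co-cultures, Tnfaip2, Fscn1 and Rala were lower with fibril-loaded neurons, 3 of 10 factors, where 10.6% of tested genes were lower in all 3; none passed the test.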
